A study of Ovis aries with 30 samples.

Results

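The genes described here encode nuclear subunits of respiratory complexes II to V. They were chosen by name from the gene column of the count table: SDHA to SDHD, names starting with UQCR or ATP5, CYC1, and the COX4 to COX8 families. The rule found 24 of 28524 genes. These are the 4 subunits of complex II, UQCRH of complex III, COX5A of complex IV, and 18 genes of complex V, the ATP synthase. COX7A1, COX4I1, the COX6, COX7 and COX8 isoforms, the remaining subunits of complex III, cytochrome c and the mitochondrially encoded subunits were not analysed here, so complexes III and IV are represented by 1 gene each. RNA was sequenced from brown adipose tissue (BAT) around the kidneys and from thyroid tissue of 15 newborn Romney lambs, and the study asked how short cold exposure changes both transcriptomes. The cold group (6 lambs) was housed for 2 days at 4 °C, the ambient temperature group (AT, 6 lambs) for 2 days at 20–22 °C, and 3 control lambs were sampled at the start, within about a day of birth. Treated lambs were therefore 2 days older than controls when sampled, so age and treatment cannot be told apart in a comparison with controls, while the cold and AT lambs were of equal age. The replicates are separate lambs, and each lamb gave 1 library of each tissue.

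Complex II (succinate dehydrogenase) feeds electrons from succinate into the respiratory chain, complex III passes them on to cytochrome c, complex IV hands them to oxygen, and complexes III and IV pump protons out of the matrix. ATP synthase lets the protons return through a membrane-embedded ring of c subunits and uses the flow to make ATP in its F1 head. Brown fat is unusual in that UCP1 returns the protons without ATP synthesis and releases the energy as heat. The c subunit is encoded by 3 nuclear genes, ATP5MC1, ATP5MC2 and ATP5MC3, which differ in their targeting peptides and give the same mature protein, and in rodent brown fat the ATP5MC1 gene is known as a determinant of the low ATP synthase content.

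The depth was 31556500 to 37025998 counts per BAT library and 25062784 to 30124871 per thyroid library, and all 24 genes passed the filter on low counts in both tissues, with counts from 152 to 21541. Values below are normalized counts, that is, counts divided by a size factor of the library. The factor rests on 3 reference genes that the study chose, HUWE1, RPL19 and ACTB. Control 2 was left out of the study in both tissues, so tests use controls 1 and 3 unless all 3 controls are named. Results with all 3 controls are given for only some of the tests and genes. With 2 against 6 lambs an exact permutation test cannot give a p-value below 0.0357, and with 3 against 6 none below 0.0119. The summed level of 10 thyroid follicular markers was 819800.9 to 3635606.2 in thyroid libraries and 305.7 to 6455.3 in BAT, although SLC26A4 was near 0 in both tissues. The summed level of 7 brown adipocyte markers was 2620.1 to 138974.4 in BAT and 623.7 to 7401.7 in thyroid tissue. BAT AT 6 stood apart with the lowest brown adipocyte sum of the BAT libraries, and its UCP1 level was 317.1 against a median of 5400.1 in its group. In bulk tissue, fewer cells of a type and less RNA per cell cannot be told apart.

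ATP5MC1 stands at 2 places in the table. The first lies at bases 23846506 to 23849223 and the other, ATP5MC1_1, at 25694513 to 25697466, both on the plus strand of the same chromosome sequence of Oar_rambouillet_v1.0, with starts 1.85 Mb apart. A read with more than 1 matching place was added to every such place, and the count of ATP5MC1_1 was 0.936 to 1.13 times that of ATP5MC1 over the 30 libraries (median 0.999). The pair therefore shares reads and is not independent evidence. It leaves 23 distinct genes.

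Levels between genes were compared per kilobase of gene length. In BAT, the highest medians over the 15 libraries belonged to ATP5ME, a small membrane subunit of ATP synthase (11800 normalized counts per kilobase), UQCRH, the acidic hinge protein of complex III (11400), and ATP5PO, a part of the peripheral stalk (10810). The lowest belonged to SDHC, a membrane anchor of complex II (695.7 normalized counts per kilobase). Within complex II, the highest level in BAT was that of SDHB, the iron-sulphur subunit, at 2422 normalized counts per kilobase. COX5A, a matrix-side subunit of complex IV, had a median of 1592 normalized counts per kilobase in BAT.

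In thyroid tissue the order was different. ATP5MC2 ranked 1 of 24 with a median of 4602 normalized counts per kilobase, ATP5F1E, the epsilon subunit of F1, ranked 2 with 3676, and UQCRH ranked 10 with 1957. SDHC was again the lowest at 392.2 normalized counts per kilobase, followed by SDHA, the catalytic flavoprotein of complex II, at 419.9. SDHB led complex II with 1161 normalized counts per kilobase, and COX5A had 767.5. Within complex V, the lowest level in both tissues was that of ATP5MC1_1, with 1108 in BAT and 524.6 in thyroid tissue. The ranges over the libraries of a tissue were wide, and neighbours in either order overlapped.

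**Figure D1:**
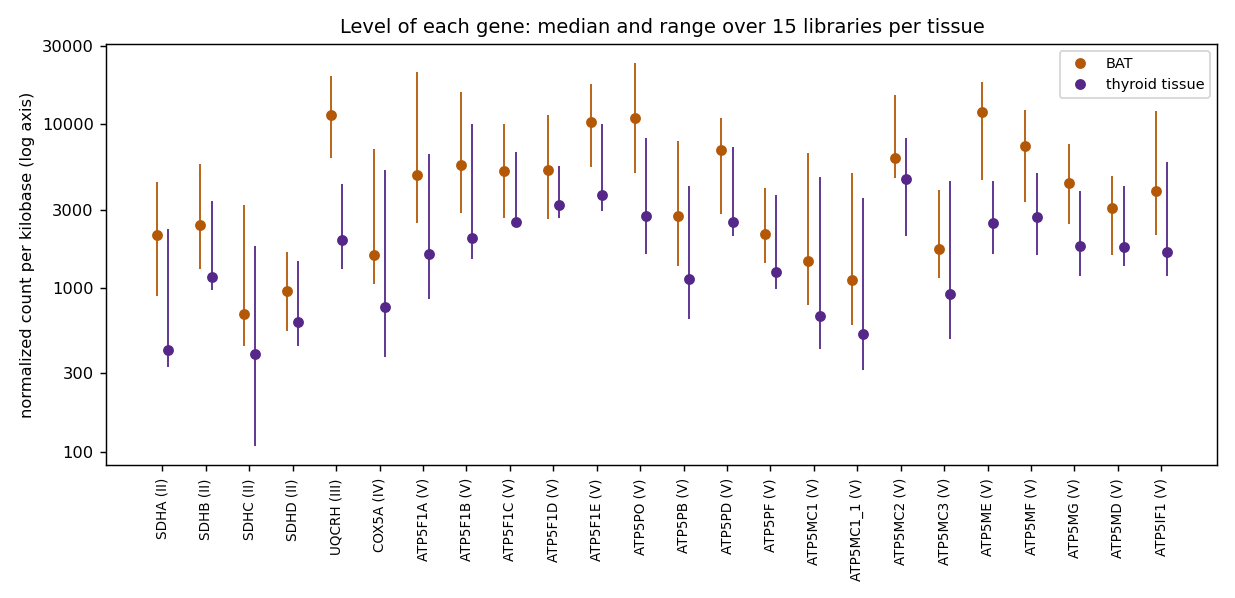
Normalized count per kilobase of gene length (log axis) of each gene, with its complex in brackets. Points are medians and bars the range over the 15 libraries of BAT (brown) and of thyroid tissue (purple). The range of SDHC in thyroid tissue is the widest, and the points of UQCRH, ATP5ME and SDHA lie farthest apart between the tissues.

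The clearest difference from the controls in BAT was in ATP5MC1, which was lower in cold and in AT lambs than in every control. Its normalized count was 2224.5 in control 1, 4877.3 in control 2 and 1808.4 in control 3. In the cold lambs it ranged from 664.1 to 1159.2 with a median of 905.0, and in the AT lambs from 578.6 to 1466.9 with a median of 965.5. No treated lamb reached the lowest control, while the cold and AT groups overlapped.

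ATP5MC1 was downregulated in cold lambs with a log2 fold change (log2FC) of −1.19 ± 0.27 (SE; edgeR's quasi-likelihood test, Benjamini-Hochberg adjusted p = 0.0416; 2 controls against 6 lambs). In AT lambs it was downregulated with a log2FC of −1.10 ± 0.27 (edgeR's adjusted p = 0.0219). ATP5MC1_1, which shares its reads, had a log2FC of −1.14 ± 0.28 in cold (edgeR's adjusted p = 0.0542, above the threshold of 0.05) and was downregulated in AT with −1.08 ± 0.28 (edgeR's adjusted p = 0.0255). With all 3 controls the log2FC of ATP5MC1 was −1.71 in cold (edgeR's adjusted p = 0.00867) and −1.62 in AT (edgeR's adjusted p = 0.00575). The fold change kept its size when single lambs were left out, from −1.33 to −1.05 in cold and from −1.23 to −0.94 in AT, but the calls did not. Without control 1 or without control 3 no gene of the 24 was called in either comparison. In cold lambs the call was also lost without any of cold 2, 3, 5 and 6 and AT 3, 4 and 5, with edgeR's adjusted p between 0.0541 and 0.0722. Between cold and AT lambs its log2FC was −0.08 (95% interval −0.49 to 0.32).

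The other c-subunit genes were not called, and the difference between the genes was not tested. ATP5MC2 had 3729.0, 10274.2 and 3188.4 normalized counts in controls 1 to 3, 3313.2 to 4246.0 in cold lambs (median 4027.3) and 3932.8 to 6450.9 in AT lambs (median 4988.3). Against controls 1 and 3 its log2FC was 0.16 in cold and 0.51 in AT (edgeR's adjusted p = 0.747 and 0.16), and with all 3 controls that in AT turned to −0.18. ATP5MC3 had 1287.2, 2945.5 and 1546.7 normalized counts in the controls, 881.9 to 1353.1 in cold lambs (median 1172.9) and 855.1 to 1490.2 in AT lambs (median 1257.0). Its log2FC was −0.32 in cold and −0.32 in AT, and neither passed the test (edgeR's adjusted p = 0.493 and 0.412).

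The share of each gene in the summed counts of ATP5MC1, ATP5MC2 and ATP5MC3 does not depend on the size factors, and is given as a description. In BAT, ATP5MC1 made up 26.95% to 30.72% of it in the 3 controls, 11.92% to 17.73% in cold lambs and 10.78% to 16.16% in AT lambs. The control range, with control 2 at its lower end, stayed above both treated ranges. ATP5MC2 made up 48.73% to 56.77% in controls and 60.91% to 73.28% in treated lambs. Relative to the median of the other members in the same library, ATP5MC1 stood at 0.4911 to 0.6632 in controls, 0.2165 to 0.2847 in cold lambs and 0.1516 to 0.3151 in AT lambs. In thyroid tissue ATP5MC1 made up 18.83% to 30.2% in controls, 8.221% to 14.46% in cold lambs and 6.47% to 27.99% in AT lambs. The cold lambs lay below all 3 controls there too, and of the AT lambs AT 3 alone reached them.

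**Figure D2:**
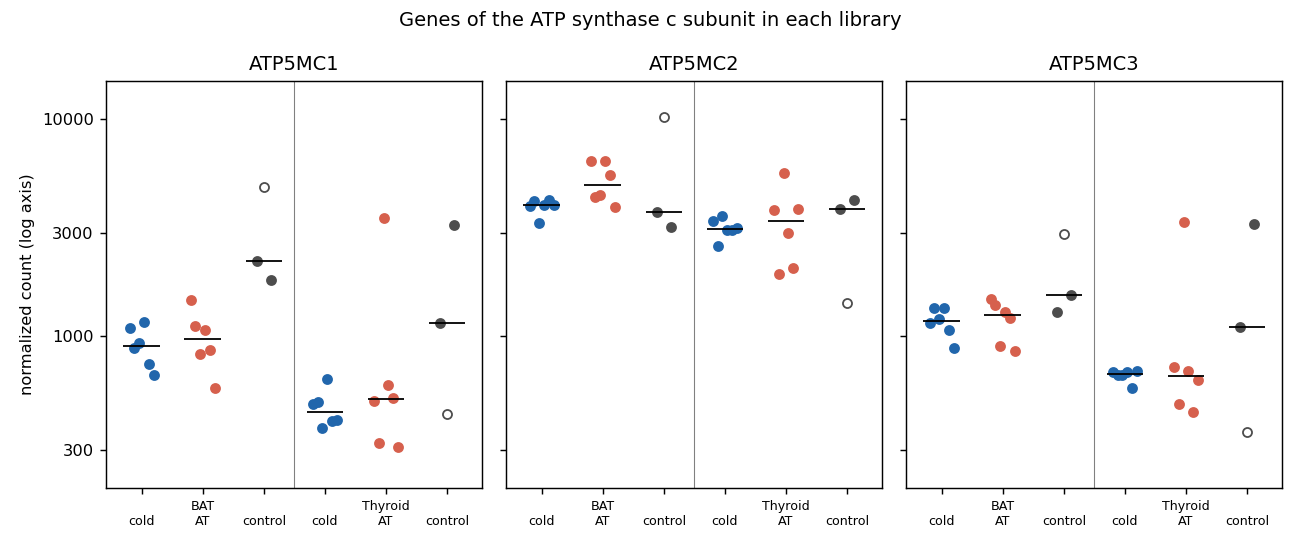
Normalized count (log axis) of the c-subunit genes in each library, by tissue and group. Each point is a lamb, open symbols are control 2 and horizontal lines are group medians over all lambs shown. In BAT, all 12 treated lambs lie below the controls for ATP5MC1 and not for ATP5MC2, and in thyroid tissue AT 3 stands far above its group for ATP5MC1 and ATP5MC3.

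Beside these values, the summed level of the 7 brown adipocyte markers was also lower in treated than in control BAT. The sum was 37471.1 to 138974.4 in the 3 controls, 10118.5 to 27746.4 in cold lambs and 2620.1 to 27835.0 in AT lambs. In the controls most of it was UCP1. The fit called 0 of the 7 in either comparison, beside 1.48% of all genes in cold and 9.18% in AT lambs. In each, 6 of 7 were negative, where 41.2% and 47.6% of all genes were positive. Of the markers 3 of 7 had an unadjusted p under 0.05, beside 18.1% of all genes in cold lambs. That share is not given here for AT lambs. UCP1 itself ranged from 30967.6 to 129427.0 normalized counts in controls, from 4647.4 to 18384.6 in cold lambs and from 317.1 to 19275.1 in AT lambs. The 6 fibroblast markers were all positive in both comparisons, beside the same 41.2% and 47.6% of all genes, and none was called. The part of these markers in the change of ATP5MC1 was not tested.

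Apart from the ATP5MC1 pair, no member was called in BAT against controls 1 and 3. In cold lambs edgeR called 1 of 24 members at an adjusted p under 0.05, where the share over all 14905 tested genes was 1.48%. Of the members 3 had an unadjusted p under 0.05, beside 18.1% of all genes. The log2FC was negative for 21 members, where 41.2% of all genes were positive, with a median of −0.25 beside −0.10 over all genes. Values of cold lambs did not overlap those of the 2 controls for 4 members, ATP5MC1, ATP5MC1_1, COX5A and ATP5F1C, beside 23.8% of all genes. In AT lambs 2 of 24 were called, both copies of ATP5MC1, beside 9.18% of all genes, and 3 members did not overlap beside 23.2%. There 13 were negative, where 47.6% of all genes were positive, and the median was −0.04, beside −0.03 over all genes. The signs depended on control 2: with all 3 controls 22 members were negative in AT lambs and 23 in cold lambs.

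COX5A had the largest log2FC among members outside the c-subunit genes. It had 1584.9, 5314.0 and 1736.8 normalized counts in controls 1 to 3, 856.3 to 1364.6 in cold lambs (median 1080.8) and 795.9 to 2492.0 in AT lambs (median 1196.6). All cold lambs lay below all controls, and the AT lambs overlapped them. Its log2FC in cold was −0.67 ± 0.31 with controls 1 and 3 (edgeR's adjusted p = 0.273) and −1.43 with all 3 (edgeR's adjusted p = 0.0348), a call that rests on control 2.

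ATP5IF1, the inhibitor that keeps ATP synthase from running in reverse, had 3262.4, 6417.0 and 2095.9 normalized counts in the BAT controls, 1514.6 to 2241.2 in cold lambs and 1121.0 to 3655.6 in AT lambs. The groups overlapped, and its log2FC was −0.58 ± 0.33 in cold and −0.20 in AT (edgeR's adjusted p = 0.373 and 0.741). UQCRH had the highest positive values, 0.29 in cold and 0.64 in AT (edgeR's adjusted p = 0.718 and 0.288). UQCRH ranged from 4146.0 to 9391.2 normalized counts in the controls, 4099.8 to 7968.8 in cold lambs and 3232.2 to 10238.5 in AT lambs. SDHA had 5448.7, 10462.3 and 4881.8 normalized counts in the BAT controls, 3777.8 to 5009.0 in cold lambs and 2131.6 to 8577.3 in AT lambs. Its log2FC in cold was −0.25 ± 0.33 (edgeR's adjusted p = 0.735).

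Control 2 set much of what the third control added. It was the highest of the 15 BAT libraries for 19 of 24 members and above both other controls for 23, at a median of 2.09 times the median of the other controls, and ATP5ME was the exception at 0.669 times. Its summed level of 7 adipocyte markers was 482617.0, where the other BAT libraries reached at most 202343.9, and its sum of 6 endothelial markers was 20793.9 against 47208.1 to 77255.6 in the others. With all 3 controls the median log2FC of the members in cold moved from −0.25 to −0.64, and 3 members were called, beside 6.14% of all genes.

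**Figure D3:**
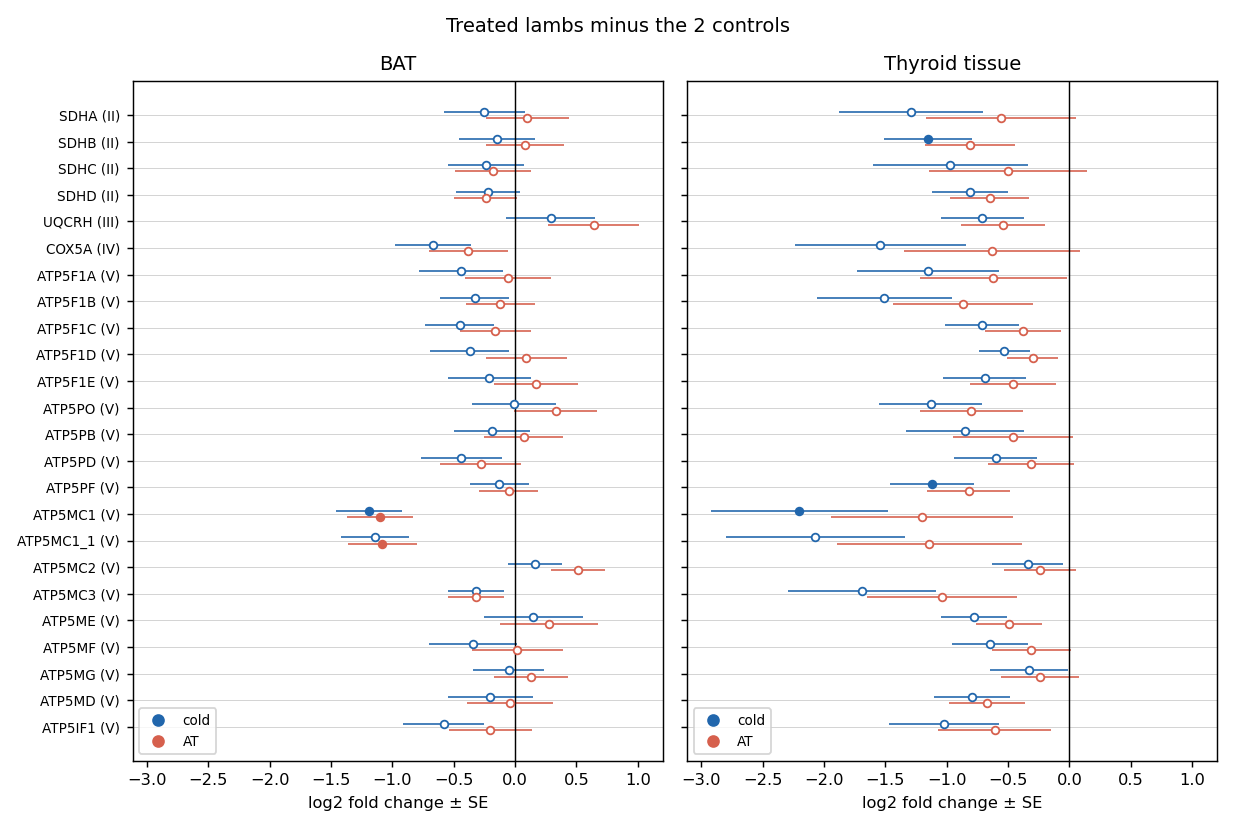
log2 fold change (horizontal axis) of each gene in cold (blue) and AT lambs (red) against controls 1 and 3, in BAT and in thyroid tissue. Bars are ± 1 SE and filled points have an edgeR adjusted p under 0.05. The ATP5MC1 pair stands apart from the other genes in BAT, and all 24 points of both groups lie below 0 in thyroid tissue, with wide bars.

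Between cold and AT lambs, which were of the same age, no member was called in either tissue. In BAT edgeR called 0 of 24 members beside 0.309% of all genes, DESeq2's Wald test also called 0, and 1 member had an unadjusted p under 0.05, beside 12.3% of all genes. That member was ATP5MC2, with a log2FC of −0.35 ± 0.15 (95% interval −0.65 to −0.05, edgeR's adjusted p = 0.374). Its cold and AT values overlapped only through AT 6, and an exact permutation test of this gene alone gave p = 0.0173. In BAT 23 of 24 members were negative in cold against AT, where 42.9% of all genes were positive, with a median log2FC of −0.25 beside −0.05 over all genes, and they ranged from −0.45 for ATP5F1D, the delta subunit of F1, to 0.02 for SDHD. The members share libraries and moved together, so this count is not that of independent genes: over the 12 treated BAT libraries 252 of 253 pairs of the 23 distinct genes had a positive Spearman correlation, with a median rho of 0.71.

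The summed normalized count of complex V, with ATP5MC1 counted at 1 of its places, shows the same spread. In BAT it was 55057.2 to 81356.4 in cold lambs (median 65848.6), 40508.6 to 109940.6 in AT lambs (median 88154.5) and 75471.5 to 181961.6 in controls. Complex II summed to 9502.7 to 13604.4 in cold lambs, 6323.2 to 18357.1 in AT lambs and 12396.9 to 27548.8 in controls. The AT range spanned the whole cold range for both complexes. For complex V this rested on AT 6 alone, as every other AT lamb lay above the highest cold lamb. For complex II other AT lambs also lay within the cold range. The test of cold against AT in BAT is not given here without AT 6. AT 6 was the lowest of its group for 23 of 24 members, at a median of 0.454 times the median of the other AT lambs. It had a fibroblast marker sum of 289403.1 with an adipocyte marker sum of 50430.6, the lowest of the BAT libraries. Their part in the spread was not tested.

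In thyroid tissue a single library changed most results. AT 3 was above the other AT lambs for all 24 members, from 1.74 times their median for ATP5ME to 7.17 times for ATP5MC1_1 (median 3.03). The same library held 828314.1 normalized counts of ACTA1 (skeletal muscle actin), 112768.6 of CKM (muscle creatine kinase) and 17703.6 of MB (myoglobin), and its 18 skeletal muscle markers summed to 2660077.2, beside 454.7 to 1186.4 in the other AT lambs. Its thyroglobulin (TG) level of 751865.8 was the lowest of the thyroid libraries. Control 1 also held muscle transcripts, with a marker sum of 231388.1. Control 3 did not, with 537.3. With the reference-gene factors it was the highest of the 3 controls for all 24 members, at a median of 2.37 times the median of the others. It also had the highest TG level (3303724.1). The size factor of control 3 was 1.22 with the reference genes and 1.45 with TMM scaling, against 1.08 and 0.908 for control 2. With the TMM factors control 3 was not the highest control for ATP5ME, ATP5MF, ATP5F1D and ATP5MC2. The part of the muscle and TG transcripts and of the scaling in the results was not tested. Values are given with and without AT 3.

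**Figure D4:**
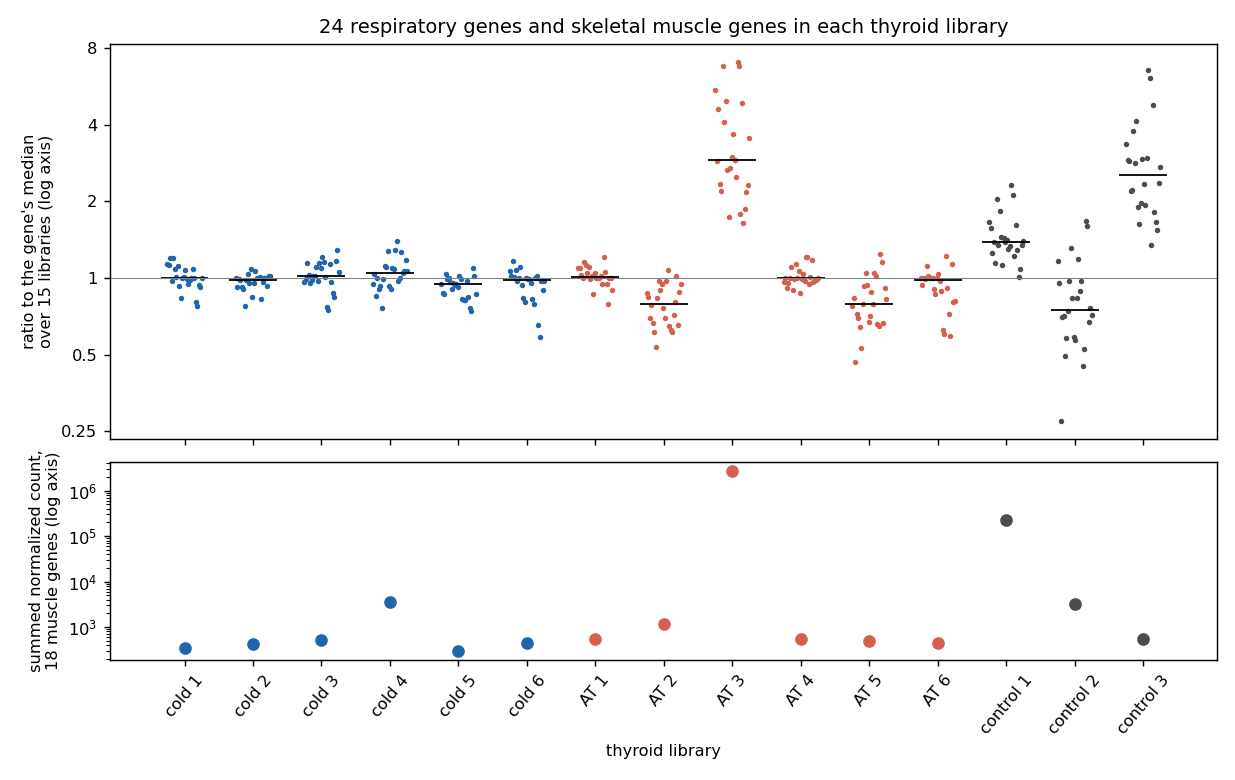
Upper panel, each of the 24 genes in each thyroid library as the ratio to its median over the 15 libraries (log axis), with a line at the median of the genes. Lower panel, the summed normalized count of 18 skeletal muscle genes in the same libraries (log axis). AT 3 and control 3 stand high in the upper panel, while AT 3 and control 1 stand high in the lower.

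Thyroid ATP5MC1 had 1146.8, 438.2 and 3250.6 normalized counts in controls 1 to 3, 378.7 to 634.7 in cold lambs (median 448.0) and 309.6 to 3486.5 in AT lambs (median 510.5). All cold lambs lay below controls 1 and 3, and control 2 lay within their range. SDHB had 2500.9, 1510.4 and 4627.7 normalized counts in the controls, 1381.5 to 1786.7 in cold lambs and 1329.1 to 4590.6 in AT lambs. ATP5PF, a subunit of the peripheral stalk also called coupling factor 6, had 1384.7, 1236.6 and 3087.9 normalized counts in the controls, 855.6 to 1127.3 in cold lambs and 821.5 to 2597.6 in AT lambs. ATP5PF was thus lower in all cold lambs than in all 3 controls, whereas SDHB overlapped control 2.

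Against controls 1 and 3, these 3 genes were downregulated in the thyroid tissue of cold lambs. The log2FC was −2.20 ± 0.72 for ATP5MC1 (edgeR's adjusted p = 0.0499). It was −1.15 ± 0.36 for SDHB (edgeR's adjusted p = 0.0403) and −1.12 ± 0.34 for ATP5PF (edgeR's adjusted p = 0.0328). The 3 of 24 called members compare with 19.3% of all 16122 tested genes, so the share of members was below the background. All 24 were negative, where 29.8% of all genes were positive, with a median of −0.91 beside −0.28. An unadjusted p under 0.05 was reached by 15 members and by 35.5% of all genes. Of the members 21 did not overlap between cold lambs and controls 1 and 3, where 33% of all genes did not, and with all 3 controls 4 did not (SDHA, ATP5F1D, ATP5PF and ATP5ME), beside 15%.

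The controls and the scaling decided these calls. With all 3 controls edgeR called only ATP5ME (log2FC −0.83, edgeR's adjusted p = 0.024), beside 17.4% of all genes, and under TMM scaling it called 0 of 24, with 6 at an unadjusted p under 0.05 and 8.81% of all genes called. TMM raised the median of all thyroid genes by 0.30 on the log2 scale in both comparisons with controls. Relative to the median of all genes, the members stood at −0.62 with the reference genes and −0.59 with TMM in cold lambs, and at −0.30 and −0.32 in AT lambs. Without control 3, cold 2, cold 5 or cold 6, no member was called in cold lambs at an adjusted p under 0.05 and a change of at least 1 on the log2 scale, and without control 1 there were 6.

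In the thyroid tissue of AT lambs, edgeR called 0 of 24 members beside 21% of all genes, and 2 had an unadjusted p under 0.05, beside 36.6%. DESeq2's Wald test called 0 and gave no adjusted p for 6 members, ATP5MC1 among them. All 24 were negative, where 31.5% of all genes were positive, with a median log2FC of −0.58 beside −0.28. Under TMM scaling 22 of the 24 were negative. Without AT 3, edgeR called 20 of 24 members beside 33.1% of all genes, all 20 lower, with a median of −1.10. ATP5MC1 was then downregulated with a log2FC of −2.24 ± 0.31 (edgeR's adjusted p = 0.00023), ATP5MC3 with −1.84 ± 0.27 (edgeR's adjusted p = 0.000294), COX5A with −1.66 ± 0.23 (edgeR's adjusted p = 0.000236) and ATP5F1B, the catalytic beta subunit, with −1.62 ± 0.21 (edgeR's adjusted p = 0.000147). ATP5MC2, ATP5ME, ATP5MF and ATP5MG were not called, and ATP5MC2 had the smallest change among the c-subunit genes at −0.44 ± 0.23 (edgeR's adjusted p = 0.16).

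Leaving out AT 3 also changed cold against control in the shared fit, where 21 of 24 members were called, all lower, beside 29.1% of all genes. These larger counts depend on the controls as well. With all 3 controls and without AT 3, edgeR called 11 members in cold lambs and 12 in AT lambs, beside 22.5% and 22.2% of all genes. With control 1 left out too, both libraries with the highest muscle marker sums were absent. Then 10 members were called in each comparison, beside 21.7% and 21.1%. Cold 4 and control 2 stayed in, with smaller muscle marker sums of 3542.2 and 3234.4. Between cold and AT in thyroid tissue, edgeR called 0 of 24 members beside 0% of all genes, and 0 had an unadjusted p under 0.05, beside 5.4%. DESeq2's Wald test called 0 and gave no adjusted p for 6 members. All 24 were negative, where 51% of all genes were positive, with a median of −0.33. Without AT 3 the sign turned, with 20 of 24 positive, a median of 0.11 and 0 called.

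Thyroid levels of the other members repeat the pattern of the libraries. COX5A had 1172.4, 285.0 and 2178.5 normalized counts in controls 1 to 3, 521.9 to 626.8 in cold lambs and 352.5 to 3916.8 in AT lambs. ATP5MC3 had 1100.8, 361.1 and 3272.7 in the controls, 574.9 to 693.6 in cold lambs and 445.0 to 3341.4 in AT lambs. ATP5IF1 had 1231.2, 629.4 and 2404.2 in the controls, 764.2 to 936.6 in cold lambs and 717.4 to 3137.1 in AT lambs. In each of them control 2 was the lowest control and AT 3 the highest treated lamb. Thyroid ATP5MC2 varied less, with 3843.4, 1425.0 and 4240.1 in the controls, 2603.3 to 3567.6 in cold lambs and 1928.3 to 5627.1 in AT lambs. Over the treated thyroid libraries the median Spearman rho between members was 0.45, and 0.29 without AT 3.

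Most members were called higher in BAT than in thyroid tissue in cold and AT lambs, and few in controls. The study reported a lower average RNA integrity number for BAT than for thyroid tissue. The fit of both tissues did not adjust for it, and its part in these differences was not tested. UQCRH and ATP5ME had the largest differences with all AT lambs included and were higher in BAT in 15 of 15 lambs. UQCRH ranged from 4099.8 to 7968.8 normalized counts in BAT of cold lambs and from 932.9 to 1232.6 in their thyroid tissue, and in AT lambs from 3232.2 to 10238.5 and from 682.3 to 2258.2. ATP5ME had 2729.7 to 5868.7 normalized counts in the BAT of cold lambs against 587.0 to 1135.8 in their thyroid tissue, and from 1643.1 to 6537.9 and 645.7 to 1476.8 in AT lambs. For both genes the lowest treated BAT library exceeded the highest treated thyroid library, AT 3 included. Within a lamb, BAT held 1.82 to 13.5 times as much UQCRH as thyroid tissue (median 5.41) and 1.68 to 8.42 times as much ATP5ME (median 5.14).

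UQCRH was 5.4-fold higher in BAT in cold lambs (log2FC 2.43 ± 0.27, edgeR's adjusted p = 1.82e-08) and 6.15-fold higher in AT lambs (2.62 ± 0.27, edgeR's adjusted p = 6.38e-09). ATP5ME was 5.33-fold higher in cold lambs (log2FC 2.41 ± 0.27, edgeR's adjusted p = 1.45e-08) and 4.79-fold higher in AT lambs (2.26 ± 0.27, edgeR's adjusted p = 4.61e-08). SDHA, which was higher in BAT in 14 of 15 lambs, followed in cold lambs at 4.4-fold (log2FC 2.14 ± 0.39, edgeR's adjusted p = 3.13e-05). Its range was 3777.8 to 5009.0 normalized counts in BAT and 941.5 to 1130.9 in thyroid tissue of these lambs. In AT lambs ATP5PO was the third, at 3.56-fold (log2FC 1.83 ± 0.30, edgeR's adjusted p = 7.39e-06), although its BAT range of 3708.4 to 11776.0 overlapped the thyroid range of 1375.7 to 6116.6, which AT 3 topped. This order rests on lamb AT 3. In fits of both tissues, here and below, leaving out AT 3 removed its BAT library along with its thyroid library. Without both, UQCRH had a log2FC of 2.79 in AT lambs, SDHA came next with 2.64, and ATP5ME and ATP5PO followed with 2.30 and 2.23.

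In cold lambs 19 of 24 members were called higher in BAT and none lower. Of all 17021 genes tested in both tissues, 63.6% were called and 42.3% were called higher. The median log2FC of the members was 1.02 beside 0.33 over all genes, all 24 were positive beside 63.8%, and 21 did not overlap between the tissues, beside 45%. SDHC, COX5A, ATP5MC2 and the ATP5MC1 pair were not called, and ATP5MC2 had the smallest difference (log2FC 0.33, edgeR's adjusted p = 0.123). In AT lambs 18 members were called higher, beside 63.8% of all genes called and 43.6% called higher, with a median of 0.88 beside 0.35. Of all genes 64.4% were positive, and all 24 members were. UQCRH and ATP5ME were the 2 members without overlap, beside 33% of all genes, and without AT 3 all 24 members were called, all higher, beside 65.9% of all genes, with a median of 1.39. TMM lowered the median of all genes by 0.25 in cold and 0.33 in AT lambs, and relative to that median the members stood at 0.68 in cold lambs under both scalings and at 0.52 (reference genes) and 0.53 (TMM) in AT lambs. With TMM 3 of the 24 turned negative in AT lambs.

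In the controls 3 of 24 members were called higher in BAT, beside 36.3% of all genes called and 18.6% called higher. They were ATP5ME (log2FC 1.46 ± 0.45, edgeR's adjusted p = 0.0119), UQCRH (1.40 ± 0.46, edgeR's adjusted p = 0.0175) and ATP5MF, another small membrane subunit (1.13 ± 0.45, edgeR's adjusted p = 0.0476). ATP5MF had 5591.5 and 3101.6 normalized counts in BAT of controls 1 and 3 and 1531.2 and 2515.4 in their thyroid tissue. The median was 0.42 beside 0.06 over all genes, 16 members were positive beside 52.2%, and 11 did not overlap, beside 67%. Without control 1 none of the 24 was called and the median was −0.11, while with all 3 controls 13 were called, beside 38.1% of all genes, with a median of 1.22.

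**Figure D5:**
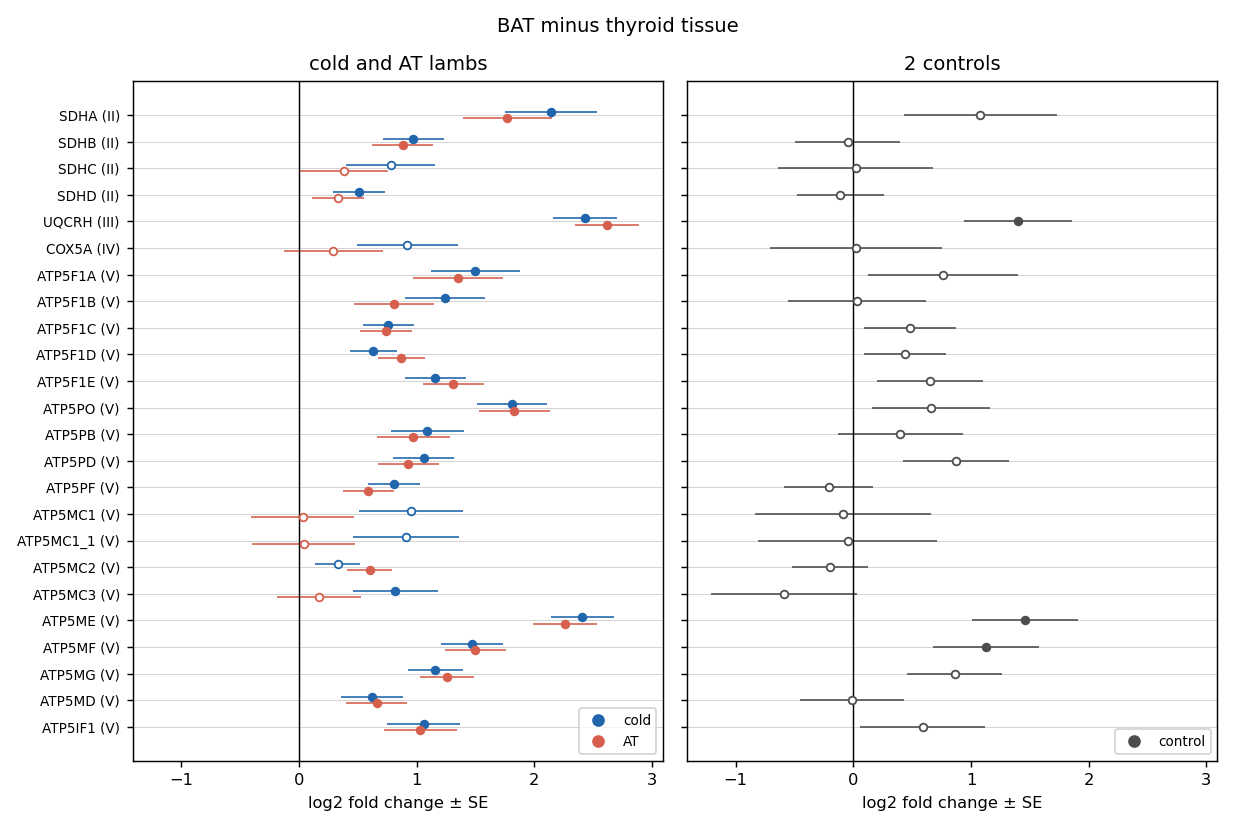
log2 fold change of BAT minus thyroid tissue (horizontal axis) for each gene, in cold (blue) and AT lambs (red) and in controls 1 and 3 (grey). Bars are ± 1 SE and filled points have an edgeR adjusted p under 0.05. UQCRH and ATP5ME lie farthest to the right in all 3 groups, and the c-subunit genes lie among the lowest.

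Whether the change against controls differed between the tissues was tested as an interaction, and no member passed. For cold lambs edgeR called 0 of 24 members (lowest adjusted p = 0.36) beside 0.182% of all genes, and 1 had an unadjusted p under 0.05 beside 11.7%. For AT lambs it called 0 of 24 (lowest edgeR adjusted p = 0.215) beside 1.71%, with 2 at an unadjusted p under 0.05 beside 17.8%. For cold against AT it called 0 of 24 (lowest edgeR adjusted p = 0.781) beside 0%, with 0 unadjusted beside 7.87%. DESeq2's Wald test also called 0 in each. All 24 interactions were positive for cold and for AT lambs against controls, where 70.1% and 69.5% of all genes were positive, with medians of 0.75 and 0.58 beside 0.27 and 0.31, whereas with all 3 controls 13 and 10 were positive. Without AT 3, edgeR called 6 members in AT lambs, SDHA, SDHB, ATP5F1B, ATP5PO, ATP5PF and ATP5MC3, beside 5.39% of all genes, with log2 differences from 1.14 for ATP5PF to 1.64 for ATP5MC3.

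The study's own rule asks in addition for a change of at least 1 on the log2 scale. It left 1 of 24 members in BAT cold against control (1.21% of all genes), 2 in BAT AT against control (6.02%) and 0 in BAT cold against AT (0.275%). In thyroid tissue it left 3 in cold against control (8.04%), 0 in AT against control (7.81%) and 0 in cold against AT (0%). Between the tissues it left 12 members in cold lambs (39.9%), 9 in AT lambs (39.7%) and 3 in controls (30.6%). Of the interactions it left 0 for cold (0.182%), 0 for AT (1.66%) and 0 for cold against AT (0%).

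Other genes of the pathway were taken from lists of other structural subunits, assembly factors, mitochondrial carriers including UCP1, and markers of mitochondrial content. Of the structural genes NDUFA4 and its paralogue NDUFA4L2 were tested, and NDUFA4L2 was downregulated in BAT of AT lambs (log2FC −1.91 ± 0.38, edgeR's adjusted p = 0.00872) and also in cold lambs' thyroid tissue (−0.83 ± 0.28, edgeR's adjusted p = 0.0483). Of 18 assembly factors in the table, 1 was called lower in BAT in cold and 1 in AT lambs, HIGD1A in both cases, a small protein associated with complex IV (log2FC −0.98 ± 0.22 and −1.18 ± 0.22, edgeR's adjusted p = 0.0386 and 0.00622). Of these factors 8 were called lower in thyroid tissue of cold lambs and 6 in that of AT lambs, ATPAF2 among them, which assists the assembly of F1 (log2FC −0.78 ± 0.21 and −0.63 ± 0.21, edgeR's adjusted p = 0.0209 and 0.0485). Between the tissues 5 of the 18 were higher and 3 lower in BAT in cold lambs, beside 63.6% of all genes called and 42.3% called higher. Against controls, 1.48% and 9.18% of all genes were called in BAT of cold and AT lambs, and 19.3% and 21% in thyroid tissue.

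Of 4 carriers tested (SLC25A3, SLC25A4, SLC25A6 and UCP1), none was called in BAT against controls or in thyroid tissue of cold lambs. In thyroid tissue of AT lambs UCP1 was called lower (log2FC −3.26 ± 1.07, edgeR's adjusted p = 0.0443), at levels of 5.837 to 33.75 normalized counts in AT lambs and 101.1 to 350.9 in controls. Of 14 mitochondrial content genes, CS (citrate synthase) was downregulated in BAT of cold lambs (log2FC −1.25 ± 0.28, edgeR's adjusted p = 0.0373) and TOMM40, an import pore subunit, in BAT of AT lambs (−0.99 ± 0.29, edgeR's adjusted p = 0.0452). In thyroid tissue 4 of the 14 were called lower in each comparison with controls, beside 19.3% of all genes called in cold and 21% in AT lambs. In BAT these shares of all genes were 1.48% and 9.18%. Between cold and AT lambs none of these lists had a called gene in either tissue.

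The same comparisons were summarised for complex I (37 genes chosen by their NDUF names, NDUFA4 and NDUFA4L2 among them) and for the mitochondrial ribosomal proteins (74 of 75 tested). This NDUF list had 0 called and a median log2FC of −0.21 in BAT cold against control, 1 called and −0.03 in BAT AT, 4 called and −0.89 in thyroid cold, and 1 called and −0.50 in thyroid AT. The called gene in BAT AT, and 1 of the 4 in thyroid cold, was NDUFA4L2. It was already given above, in a list outside complex I. Between the tissues 28 of the 37 genes of this list were higher in BAT in cold lambs with a median of 1.20, and 23 in AT lambs with 0.95. Of all genes 42.3% and 43.6% were called higher there. The mitochondrial ribosomal proteins had medians of −0.25 and −0.21 in BAT and −0.72 and −0.46 in thyroid tissue in cold and AT lambs against controls, and 1 and 2 of the 74 were called in BAT and 18 and 12 in thyroid tissue, all lower. Between the tissues 37 of 74 were higher and 4 lower in BAT in cold lambs, with a median of 0.44, beside 63.6% of all genes called and 42.3% called higher. Of all genes, 1.48% and 9.18% were called in BAT of cold and AT lambs against controls, and 19.3% and 21% in thyroid tissue. The differences between the lists were not tested.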

How the data were processed

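RNA was extracted by the submitters with TRIzol, captured on oligo(dT) beads and sequenced as read pairs on the BGISEQ-500 platform. Per the submitters' processing notes and the methods of the study, reads were checked with FastQC 0.11.9, trimmed with Trimmomatic 0.39, aligned with STAR 2.7.7a to Oar_rambouillet_v1.0 and counted with featureCounts (Subread 2.0.0), reads mapping to several places included. The use of strand is not given in the sources used here. The deposited values are raw counts of reads per gene, which the authors had not normalized, and they were used unchanged. A gene sharing reads with a near-identical copy, such as ATP5MC1, is counted at both places.

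A gene was tested where 10 or more libraries held 10 or more of its reads, which left 14905 genes in BAT and 16122 in thyroid tissue. Groups were compared by edgeR 4.0.16 (R 4.3.3), with robust quasi-likelihood fits, 2-sided tests and Benjamini-Hochberg adjustment over all genes tested, and with offsets from DESeq2 1.42.0 size factors on HUWE1, RPL19 and ACTB. The 3 groups of a tissue shared a fit. Tissues and interactions were tested in a fit of both tissues (17021 genes). Members are called at an adjusted p under 0.05. The closing section counts those that also reach 1 on the log2 scale, the rule of the study. Printed normalized counts use size factors over all 30 libraries, which differ from the factors within a tissue by at most 6.39%. The controls that the study kept were identified by matching its normalized counts to the libraries, as controls 1 and 3 in the numbering used here, and the same lamb was absent in both tissues.

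The 2 libraries of a lamb are paired by the animal number in the labels. The correlation of their deviations from the group means was 0.05 to 0.33, and above 0.1 in 13 of 14 lambs. The fit with the lamb as replicate block is an alternative. The other alternatives were TMM scaling, DESeq2's Wald test, its median-of-ratios factors, all 3 controls, each lamb left out in turn, other filters, fits restricted to a pair of groups, RNA integrity as covariate within a tissue and, chosen after seeing the data, all 3 controls with TMM or without AT 3 or control 1. In the fit of both tissues, a lamb left out lost both of its libraries. The test of cold against AT within a tissue was also run on simulated counts with known changes, with the reference genes set to vary little. Comparisons with controls, between tissues and of interactions were not evaluated on simulated counts. The members, gene lists and markers were chosen with earlier results of these data known. Named with values were the c-subunit genes, ATP5IF1, the called members with the largest changes and the highest and lowest member per kilobase of each complex. Other genes named were chosen after their values were seen.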

Additional observations from a re-analysis of the deposited data

Results flagged for a closer look

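The spread within the treated groups was checked for complex totals and for UQCRH, COX5A, the c-subunit genes and ATP5IF1, in 32 groups of 6 libraries. A library is listed where its gap to the nearest other, divided by the range of the group, exceeded Dixon's critical value of 0.625, which chance passes in about 1 in 20 groups. The members share libraries, so these are not independent results.

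Thyroid AT 3 lay far above its group for 7 of these measures. Its summed normalized count was 16898.9 for complex II and 93955.1 for complex V. Its normalized count was 2258.2 for UQCRH, 3916.8 for COX5A, 3486.5 for ATP5MC1, 3341.4 for ATP5MC3 and 3137.1 for ATP5IF1. This is the library with 2660077.2 normalized counts of skeletal muscle markers, whose part was not tested.

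In BAT, AT 6 lay below its group for the complex V total (40508.6 normalized counts), and cold 3 lay below its group for ATP5MC2 (3313.2). In thyroid tissue, cold 5 lay below its group for ATP5MC3 (574.9). The BAT library of control 2, which the study left out, was the highest of 15 for 19 of 24 members.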

How the results depend on the processing

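Counts here are members at an adjusted p under 0.05 and at least 1 on the log2 scale. Of the alternative values 244 stayed within the margin for a count or total and 58 did not. For the members with the largest called changes of each comparison, and the ATP5MC1 pair, 358 values kept their side of the threshold, 67 lost it, 20 gained it and none changed sign. Other members, such as ATP5MC2, whose sign turned in BAT AT with all 3 controls, are not in these numbers. No cause of these shifts was tested unless fewer samples or genes define the setting.

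In BAT cold against control (1 member), DESeq2's Wald test, median-of-ratios factors, TMM and only the 2 groups compared each gave 2, all 3 controls gave 3, and all 3 with TMM 7. In BAT AT (2), TMM gave 1, all 3 controls with TMM 4 and only the 2 groups 0. In thyroid cold (3), median-of-ratios factors, the RNA integrity covariate, TMM, all 3 controls and all 3 with TMM each gave 0, no filter 1, only the 2 groups 10, all 3 controls without AT 3 gave 5, and without AT 3 and control 1 gave 6. In thyroid AT (0), these last settings gave 6 and 6. Between tissues, cold (12) gave 19 at the adjusted p alone and 6 with median-of-ratios factors, with TMM and with all 3 controls and TMM. AT (9) gave 18 at the adjusted p alone and 20 with all 3 controls without AT 3. Controls (3) gave 11 with all 3, 12 with TMM as well and 14 without AT 3.

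Leaving out each lamb in turn gave 0 to 2 in BAT cold, 0 to 2 in BAT AT, 0 to 11 in thyroid cold, 0 to 13 in thyroid AT, 8 to 19 between tissues in AT lambs, 0 to 4 in controls, and 0 to 6 for the interaction in AT lambs. The upper values of 11, 13, 19 and 6 came without AT 3, and the 0 in controls without control 1. With 1 control left, that library is assumed to vary like the other groups.

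With the lamb as replicate block, the paired fit called 12 members between tissues in cold lambs, 12 in AT lambs and 3 in controls, and UQCRH had a log2FC of 2.40, 2.63 and 1.47. It changed no call of a named gene in these comparisons. Within a tissue the groups hold different lambs, so no block applies there.

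The lowest count of a member in any library was 152. Each comparison with controls rests on 2 or 3 control lambs. What limited the number of calls was not tested.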
